A study of Homo sapiens with 9 samples.

Results

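The proteasome genes were followed in A498 cells, an established human clear cell renal cell carcinoma line that lacks functional VHL, after depletion of either of a pair of related bHLH-PAS proteins. Members were taken by a rule on gene names, as every name in the count table that begins with PSM, a letter from A to G and a number. The rule found 52 of the 27671 gene names. Of these, 48 encode subunits, activators, a regulator or assembly chaperones of the proteasome, and the other 4 (PSMC3IP, PSMD5-AS1, PSMD6-AS2 and PSMG3-AS1) only share the name.

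RNA was sequenced from 3 groups with 3 libraries each. All cells carried a lentiviral pLKO.1 construct and had been selected and kept in puromycin. The control group (shControl) carried a non-targeting hairpin, and the others carried a hairpin against BMAL1 (shBMAL1) or against ARNT (shARNT). ARNT is the usual partner of HIF2α, and BMAL1 is the clock protein asked about here as an alternative partner. Each gene was targeted with 1 hairpin, the cells were selected populations of 1 line, and an effect of a hairpin on other transcripts cannot be told apart from depletion of its target. The libraries are labelled biological replicates, but whether they came from separate infections is not stated, so the p-values measure the spread between these libraries, which may be partly technical.

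The 26S proteasome degrades ubiquitin-tagged proteins. Its 20S core is a barrel of alpha and beta rings in which a few beta subunits carry the proteolytic sites, and its 19S regulatory particle recognises the ubiquitin tag, removes it and unfolds the substrate with a ring of ATPases. In cells exposed to interferon the catalytic subunits PSMB5, PSMB6 and PSMB7 are exchanged for the immune subunits PSMB8, PSMB9 and PSMB10, which change the peptides made for antigen presentation. Other caps (PSME1 to PSME4) can replace the 19S particle, and dedicated chaperones assemble both the core and the base. When proteasome activity is short, the transcription factor NFE2L1 is known to raise most subunit genes together.

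The promoters of 5 members are shown as examples of the main roles. The immune subunit PSMB9, the base ATPase PSMC4, the lid deubiquitinase PSMD14 and the activator PSME3 had the largest rise of their role in shARNT cells, and the base chaperone PSMD5 is a member that fell. Each run is the 250 bases before the annotated start, 5′ to 3′ on the gene's strand, from RefSeq on GRCh38.p14. Capitals mark matches on either strand to the E-box CACGTG, the shorter hypoxia response core ACGTG (which every E-box contains), CCAAT, TTCNNNGAA or TGANNNNGC. The last of these, a loose core of sites for NFE2L1-type factors, was added after the data were seen.
PSMB9 (chr6:32853942-32854191, plus strand): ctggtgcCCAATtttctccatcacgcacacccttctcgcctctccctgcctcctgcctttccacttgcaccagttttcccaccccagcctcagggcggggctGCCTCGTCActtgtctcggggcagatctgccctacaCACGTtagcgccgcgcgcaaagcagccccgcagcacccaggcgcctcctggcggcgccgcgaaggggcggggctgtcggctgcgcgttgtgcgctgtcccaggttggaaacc
PSMC4 (chr19:39970915-39971164, plus strand): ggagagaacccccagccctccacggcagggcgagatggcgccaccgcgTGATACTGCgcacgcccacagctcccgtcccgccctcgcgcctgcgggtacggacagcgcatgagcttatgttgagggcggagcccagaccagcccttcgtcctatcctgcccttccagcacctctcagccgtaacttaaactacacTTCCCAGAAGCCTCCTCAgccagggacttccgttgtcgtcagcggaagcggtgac
PSMD14 (chr2:161308175-161308424, plus strand): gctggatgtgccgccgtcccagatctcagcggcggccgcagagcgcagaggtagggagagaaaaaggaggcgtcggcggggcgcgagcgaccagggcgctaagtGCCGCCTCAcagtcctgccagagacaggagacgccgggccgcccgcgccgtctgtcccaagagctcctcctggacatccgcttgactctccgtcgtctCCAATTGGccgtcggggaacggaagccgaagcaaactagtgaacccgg
PSME3 (chr17:42833147-42833396, plus strand): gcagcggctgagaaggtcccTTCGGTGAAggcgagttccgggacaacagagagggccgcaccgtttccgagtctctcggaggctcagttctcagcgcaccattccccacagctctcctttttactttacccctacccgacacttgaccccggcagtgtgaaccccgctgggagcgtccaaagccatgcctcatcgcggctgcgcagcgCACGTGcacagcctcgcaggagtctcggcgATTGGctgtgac
PSMD5 (chr9:120842923-120843172, minus strand): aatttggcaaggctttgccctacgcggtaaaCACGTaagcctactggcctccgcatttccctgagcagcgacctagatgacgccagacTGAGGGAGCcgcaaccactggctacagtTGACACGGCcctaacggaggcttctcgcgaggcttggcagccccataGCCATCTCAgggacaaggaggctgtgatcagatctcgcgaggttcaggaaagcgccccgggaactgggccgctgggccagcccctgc

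The libraries held between 35269851 and 36099075 counts, and values are given as CPM, the standard depth-scaled count with TMM factors for composition, with the SD over 3 libraries. ARNT fell from 50.5 ± 2.24 CPM in shControl to 9.47 ± 0.433 in shARNT, and it was also lower in shBMAL1, at 32.3 ± 1.52. ARNTL, the symbol of BMAL1 in the table, fell from 16.3 ± 0.395 to 5.02 ± 0.789 CPM in shBMAL1 and stood at 23.9 ± 1.30 in shARNT. The keratins KRT8 and KRT18 and the kidney factors PAX8 and PAX2 were detected in every library, as was the mesenchymal marker VIM, common in this carcinoma, whereas EPCAM stayed below 0.5 CPM. Their levels did not shift together in shARNT. PAX8 was 100.3 ± 5.65 CPM there against 35.98 ± 1.92 in the controls, and VIM 812 ± 28.6 against 5974 ± 28.8. KRT8 (log2 change -0.75) and PAX2 (-0.55) were also lower in shARNT, and KRT18 hardly changed (-0.01). CA9, another marker of this carcinoma, went from 76.45 ± 4.62 CPM in the controls to 1.06 ± 0.215 in shARNT. Among 10 markers of leukocytes, endothelium and red cells, CD3E and HBB were at 0 in every library, and ITGAM and TEK alone exceeded 2 CPM in any library, both with their lowest values in shARNT. The summed level of the 10 was between 11.2 and 12.2 CPM in the controls, between 9.51 and 11.9 with shBMAL1 and between 2.33 and 3.40 with shARNT, and its part in the results was not tested. Because whole cultures were measured, fewer cells with a transcript and less of it per cell cannot be told apart.

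Most proteasome genes rose in both depletions, and by much more in shARNT. The 48 genes together made up between 0.451 and 0.466% of counts in the control libraries. The share was between 0.516 and 0.518% with shBMAL1 and between 0.809 and 0.818% with shARNT, so that the 3 groups did not overlap. Of the 48, 46 had enough counts to be tested. The core subunit PSMA8, known from testis, was at 0 in every library, and PSMB11, the thymic catalytic subunit, had 1 count in a single library.

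In shARNT against shControl, 38 of the 46 tested genes were higher and 6 lower at an adjusted p below 0.1 (edgeR's quasi-likelihood test, Benjamini-Hochberg adjustment over 15551 genes). For all tested genes the shares were 40.5% higher and 41.3% lower. The median log2 fold change of the 46 was 0.67, against -0.01 for all genes, and 25 of them were higher and 2 lower by at least 1.5-fold, where 24.5% and 28.9% of all genes were. In shBMAL1 against the same controls, 34 were higher and 6 lower, where 31.9% of all genes were higher and 31.5% lower. Their median was 0.21, against 0 for all genes, and PSMB9 and PSMB10 were the members past 1.5-fold there, where 11.2% of all genes were higher and 12.4% lower by that much. Compared directly, 34 were higher and 9 lower in shARNT than in shBMAL1, with backgrounds of 40.1% and 41.1% and a median of 0.40. Past 1.5-fold, 15 were higher and 2 lower there, against 24.1% and 28.4% of all genes. With scaling by library size alone, the median of all genes in shARNT moved to 0.23 and the split of calls over all genes became 50.3% higher and 32.9% lower, and the median of the 46 became 0.91.

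**Figure D1:**
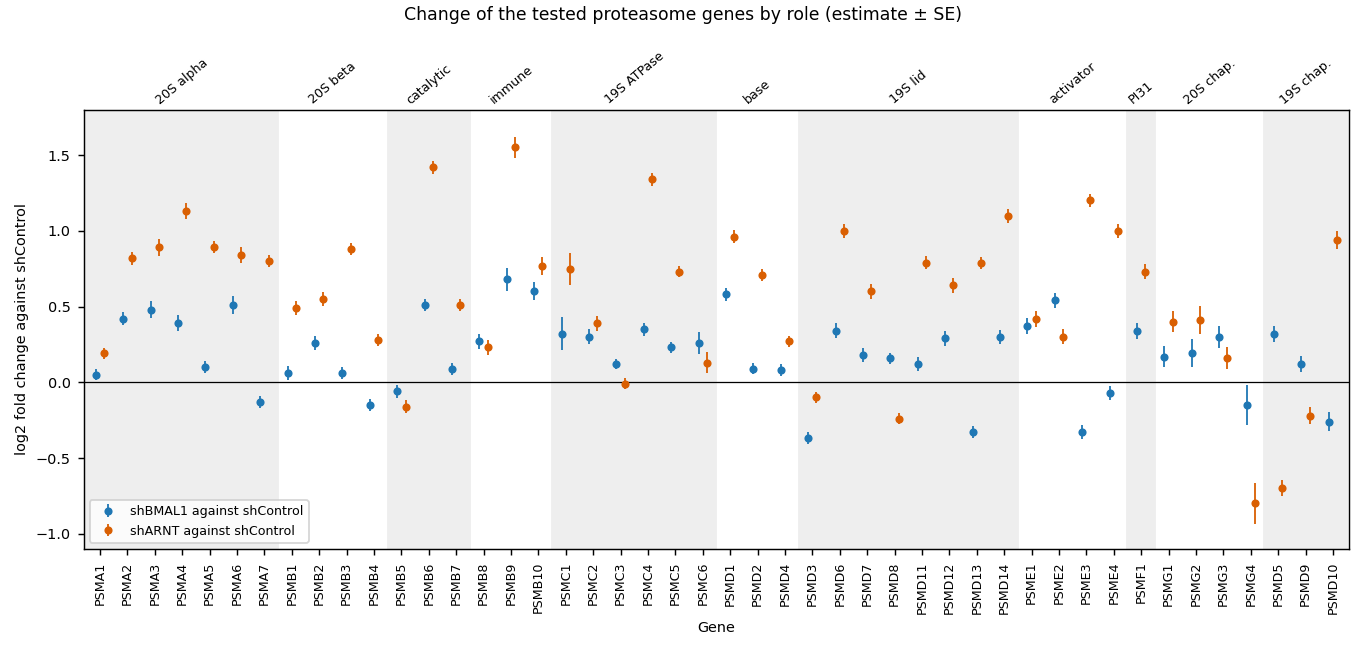
Log2 fold change against shControl (vertical axis, point with SE) for the 46 tested proteasome genes, grouped by role along the horizontal axis, in shBMAL1 (blue) and shARNT (orange). Both series share the 3 control libraries; the orange points reach 1.55 at PSMB9 and -0.80 at PSMG4, while the blue points stay between -0.37 and 0.68.

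The 3 constitutive catalytic subunits did not move together. PSMB6, the caspase-like subunit (GRCh37, chromosome 17, 4699439 to 4701797, plus strand), measured 121, 117 and 117 CPM in shControl, 163, 163 and 180 in shBMAL1, and 316, 318 and 318 in shARNT. Its 3 groups were fully separated, and the rise in shARNT was 2.68-fold (log2 1.42 ± 0.04 SE, adjusted p = 5.25e-17). In shBMAL1 PSMB6 rose by 0.51 ± 0.04 on the log2 scale (adjusted p = 2.98e-09). PSMB7, the trypsin-like subunit, averaged 115 ± 0.637 CPM in shControl, 122 ± 0.164 in shBMAL1 and 163 ± 4.31 in shARNT. Its log2 change was 0.51 ± 0.04 in shARNT (adjusted p = 2.09e-10), and in shBMAL1 the small change of 0.09 (adjusted p = 0.0659) lost its call when any 1 of 5 libraries was left out (each control, shBMAL1 2 and shBMAL1 3), at 0.08 to 0.09.

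PSMB5, the chymotrypsin-like subunit and the main target of proteasome inhibitor drugs (chromosome 14, 23485752 to 23504439, minus strand), stood apart from both. Its levels were 139, 145 and 151 CPM in shControl, 143, 140 and 134 in shBMAL1, and 132, 126 and 131 in shARNT. All shARNT values lay below all control values (log2 -0.16 ± 0.04, adjusted p = 0.00199), but with library size alone this estimate became 0.08. The shBMAL1 values overlapped the controls (adjusted p = 0.241).

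All 3 immune subunits rose in both depletions, beside 40.5% of all genes in shARNT and 31.9% in shBMAL1. PSMB9 (chromosome 6, 32811913 to 32827628, plus strand), which replaces PSMB6, measured 15.5, 14.6 and 14.1 CPM in shControl, 22.4, 23.1 and 25.3 in shBMAL1, and 44.03, 45.7 and 39.8 in shARNT. No group overlapped another, and the rise in shARNT of 2.93-fold (log2 1.55 ± 0.07, adjusted p = 6.19e-14) was the largest of the 46 genes. In shBMAL1 it rose by 0.68 ± 0.07 (adjusted p = 1.62e-07), again the largest of the 46. PSMB10, which replaces PSMB7, went from 34.1, 34.8 and 33.0 CPM to 48.3, 51.5 and 54.8 in shBMAL1 and 55.9, 61.7 and 56.0 in shARNT. It rose by 0.77 ± 0.06 in shARNT (adjusted p = 2.47e-10), against 0.60 ± 0.06 in shBMAL1 (adjusted p = 4.06e-08).

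PSMB8, which replaces PSMB5, rose least of the immune subunits. It measured 65.9, 71.7 and 66.8 CPM in shControl, 84.4, 78.9 and 83.0 in shBMAL1, and 81.9, 79.2 and 78.7 in shARNT. Its rise of 0.23 ± 0.05 in shARNT (adjusted p = 0.000215) stood beside one of 0.27 ± 0.05 in shBMAL1 (adjusted p = 7.95e-05). The depletions did not differ beyond their spread for PSMB8 (-0.04 ± 0.05, adjusted p = 0.468), and with library size alone this difference became 0.15. Exons of PSMB8-AS1 overlap 30.2% of the longest coding transcript of PSMB8 on the other strand, and how strand entered the counting is not stated.

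**Figure D2:**
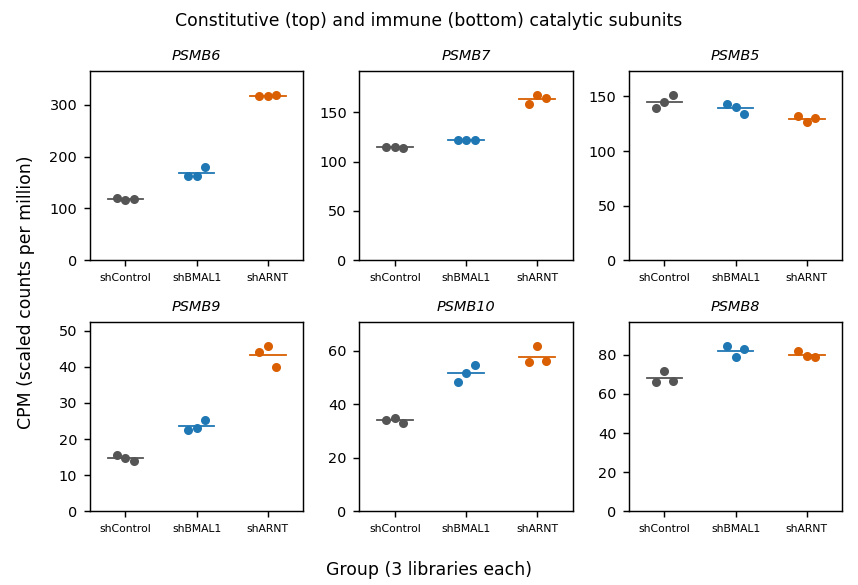
CPM (vertical axis, from 0) of the constitutive catalytic subunits PSMB6, PSMB7 and PSMB5 (top) and the immune subunits PSMB9, PSMB10 and PSMB8 that replace them (bottom), by group along the horizontal axis. Each point is a library and each bar the mean of 3; PSMB6 reaches 318 CPM and PSMB9 45.7 CPM in shARNT.

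Within a library, the ratio of each immune subunit to the one it replaces does not depend on the scaling between libraries. For PSMB8 to PSMB5 the log2 ratio was -1.08, -1.01 and -1.18 in shControl, -0.76, -0.83 and -0.69 in shBMAL1, and -0.69, -0.68 and -0.73 in shARNT. Both depletions thus lay above the controls, by 0.33 and 0.39, and overlapped each other. For PSMB10 to PSMB7 the mean ratio was -1.76 ± 0.03 (SD) in shControl, -1.24 ± 0.09 in shBMAL1 and -1.50 ± 0.06 in shARNT, and the groups were separated. For PSMB9 to PSMB6 the mean was -3.01 ± 0.05 in shControl, -2.84 ± 0.02 in shBMAL1 and -2.88 ± 0.11 in shARNT, where the shARNT values overlapped both other groups. The log2 ratio of the summed counts of the 3 immune subunits to those of the 3 constitutive ones was also taken. It was higher in shBMAL1 (-1.45 ± 0.03) than in shControl (-1.70 ± 0.06), while shARNT (-1.75 ± 0.05) overlapped the controls. This is not a mean of the 3 pair ratios, whose shARNT means lay above the controls by 0.39, 0.13 and 0.26. In shARNT the constitutive sum is weighted towards PSMB6, at 317 CPM against 163 for PSMB7 and 130 for PSMB5. With 3 libraries against 3, an exact permutation test of such a ratio cannot go below p = 0.1, so these ratios are given without a test.

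**Figure D3:**
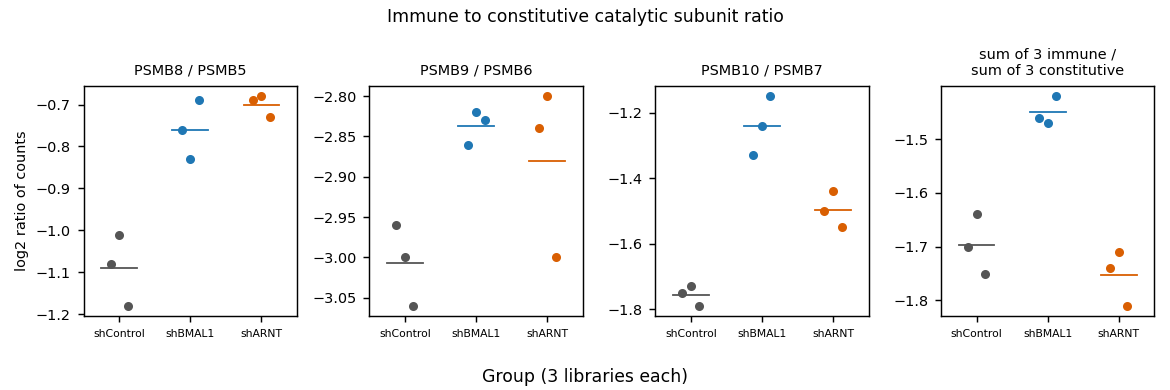
Log2 ratio of counts of each immune subunit to its constitutive counterpart (vertical axis) by group (horizontal axis), with points for libraries and bars for the means of 3. In the rightmost panel the ratio of the summed counts sits near -1.45 in shBMAL1 and at -1.81 to -1.64 in the shControl and shARNT libraries.

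The 7 alpha subunits, which form the outer rings and the gate of the core, all rose in shARNT, where 40.5% of all genes did. Their log2 changes ran from 0.19 to 1.13, with a median of 0.84. The largest was PSMA4 (chromosome 15, 78832747 to 78844759, plus strand), at 67.4, 58.9 and 64.0 CPM in shControl, 84.8, 82.8 and 81.0 in shBMAL1, and 135, 146 and 136 in shARNT. This was a rise of 1.13 ± 0.05 in shARNT (adjusted p = 4.86e-14) and of 0.39 ± 0.05 in shBMAL1 (adjusted p = 2.78e-06). PSMA6 had the largest alpha change in shBMAL1, 0.51 ± 0.06 (adjusted p = 1.68e-07), and rose by 0.84 in shARNT. PSMA1 rose by 0.19 in shARNT and its shBMAL1 estimate of 0.05 did not pass the test (adjusted p = 0.316).

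PSMA7 was the alpha subunit that went opposite ways. It measured 169, 171 and 182 CPM in shControl, 152, 160 and 165 in shBMAL1, and 304, 300.0 and 305 in shARNT. It rose by 0.80 ± 0.04 in shARNT (adjusted p = 3.81e-13) and fell by 0.13 in shBMAL1 (adjusted p = 0.0108). The 4 non-catalytic beta subunits, which are structural, also all rose in shARNT (40.5% of all genes), from 0.28 for PSMB4 to 0.88 for PSMB3. In shBMAL1 PSMB2 rose by 0.26, PSMB4 fell by 0.15 (adjusted p = 0.00245), and PSMB1 and PSMB3 did not pass the test.

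Of the 17 genes of the 19S particle, 13 rose and 2 fell in shARNT (40.5% and 41.3% of all genes), and 15 rose and 2 fell in shBMAL1 (31.9% and 31.5% of all genes). Among the ATPases of the base, which unfold substrates, PSMC4 (chromosome 19, 40477072 to 40487671, plus strand) moved most. It measured 95.4, 89.9 and 89.8 CPM in shControl, 121, 117 and 112 in shBMAL1, and 233, 231 and 230 in shARNT. The groups were fully separated, with a 2.52-fold rise in shARNT (log2 1.34 ± 0.04, adjusted p = 1.23e-16) and 0.35 ± 0.04 in shBMAL1 (adjusted p = 7.93e-07). PSMC3, by contrast, was 262 ± 4.84 CPM in shControl and 260 ± 5.40 in shARNT (log2 -0.01, adjusted p = 0.733, and 0.22 with library size alone), and rose by 0.12 in shBMAL1.

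The values of PSMC1 and PSMC6 are uncertain. Exons of another annotated gene on the same strand cover 100% of the longest coding transcript of PSMA2, 81.4% of PSMA6, 56.1% of PSMB10, 52.5% of PSMA1 and 28.8% of PSMD9, and exons on the other strand cover 51.6% of PSMD7. How reads in such stretches were assigned is not stated, so those levels carry the same doubt. Pseudogene copies at 98% identity or more cover 30.1% of the longest PSMC1 transcript and 54.1% of that of PSMC6, and exons of NRDE2 overlap 83.2% of PSMC1 on the other strand. PSMC1 had 5.61 ± 0.481 CPM in shControl and 9.46 ± 0.187 in shARNT, which in shControl was 1.28 CPM per kilobase of its longest coding transcript, against 166 for PSMC3.

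In the rest of the base, the scaffold subunits PSMD1 and PSMD2 rose in shARNT by 0.96 and 0.71, and the ubiquitin receptor PSMD4 by 0.27. PSMD1 (chromosome 2, 231921559 to 232037830, plus strand) measured 144, 141 and 135 CPM in shControl, 211, 202 and 214 in shBMAL1, and 257, 278 and 282 in shARNT. Its rise of 0.58 ± 0.04 in shBMAL1 (adjusted p = 6.26e-10) was the largest of the 19S genes there. In shBMAL1 PSMD2 changed by 0.09 and lost its call without shControl 2, shControl 3 or shBMAL1 3, at 0.08 to 0.09. PSMD4 changed by 0.08 there and lost its call without shControl 2, shBMAL1 1, shBMAL1 2 or shARNT 2, at 0.06 to 0.08.

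The lid holds the deubiquitinase PSMD14, which cuts the ubiquitin chain from the substrate (chromosome 2, 162164936 to 162268228, plus strand). PSMD14 measured 90.7, 85.5 and 83.6 CPM in shControl, 100.4, 109 and 110 in shBMAL1, and 182, 192 and 184 in shARNT. It rose by 1.10 ± 0.05 in shARNT (adjusted p = 1.29e-14) and by 0.30 ± 0.05 in shBMAL1 (adjusted p = 1.85e-05). PSMD6, a structural lid subunit, rose by 1.00 and 0.34.

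Other lid subunits, all structural, went apart. PSMD13 (chromosome 11, 236966 to 252984, plus strand) measured 114, 113 and 109 CPM in shControl, 87.6, 89.9 and 89.3 in shBMAL1, and 192, 189 and 198 in shARNT. It rose by 0.79 ± 0.04 in shARNT (adjusted p = 2.76e-13) and fell by 0.33 in shBMAL1 (adjusted p = 8.04e-07), a separation larger than the spread in either direction. PSMD3 went from 227 ± 9.99 CPM to 176 ± 2.47 in shBMAL1, a fall of 0.37 on the log2 scale (adjusted p = 1.16e-07). In shARNT the estimate for PSMD3 was -0.10 (adjusted p = 0.0319), -0.06 with no call when shControl 3 was left out, and 0.14 with library size alone. PSMD8 rose by 0.16 in shBMAL1 (adjusted p = 0.000974) and had an estimate of -0.24 in shARNT (adjusted p = 6.72e-06) that became 0.00 with library size alone.

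The activators split into a pair of interferon-responsive subunits and a pair that is not. PSME1 and PSME2 form the PA28αβ cap and rose in both depletions. PSME1 went from 99.95 ± 0.513 CPM to 129 ± 7.11 in shBMAL1 and 133 ± 10.2 in shARNT, by 0.37 and 0.42. The direct difference for PSME1 was 0.04 ± 0.05 (adjusted p = 0.449), but it passed the test at 0.11 without shARNT 3 and at 0.23 with library size alone. PSME2 measured 49.7, 47.8 and 49.3 CPM in shControl, 70.3, 71.2 and 72.0 in shBMAL1, and 63.7, 60.0 and 57.3 in shARNT. It rose by 0.54 ± 0.05 in shBMAL1 (adjusted p = 1.60e-08) and by 0.30 ± 0.05 in shARNT (adjusted p = 1.75e-05), and here shARNT lay below shBMAL1 (-0.24, adjusted p = 0.000193), a difference of -0.05 with no call under library size alone.

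PSME3, the nuclear PA28γ cap (chromosome 17, 40976402 to 40995777, plus strand), showed the largest difference between the depletions. It measured 159, 158 and 147 CPM in shControl, 128, 115 and 126 in shBMAL1, and 347, 355 and 366 in shARNT. It rose 2.30-fold in shARNT (log2 1.20 ± 0.05, adjusted p = 1.96e-15) and fell by 0.33 in shBMAL1 (adjusted p = 3.35e-06), and the direct difference was 1.53 ± 0.05 (adjusted p = 4.48e-17). PSME4, the PA200 cap (chromosome 2, 54091206 to 54198130, minus strand), measured 82.0, 81.3 and 75.4 CPM in shControl, 78.0, 71.6 and 78.6 in shBMAL1, and 157, 159 and 163 in shARNT. It rose by 1.00 ± 0.05 in shARNT (adjusted p = 9.12e-14), and its shBMAL1 values overlapped the controls (adjusted p = 0.261). PSMF1, the PI31 protein that binds the core and can inhibit it, rose from 39.5 ± 1.61 CPM to 49.97 ± 0.655 in shBMAL1 and 65.5 ± 1.93 in shARNT, by 0.34 and 0.73.

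**Figure D4:**
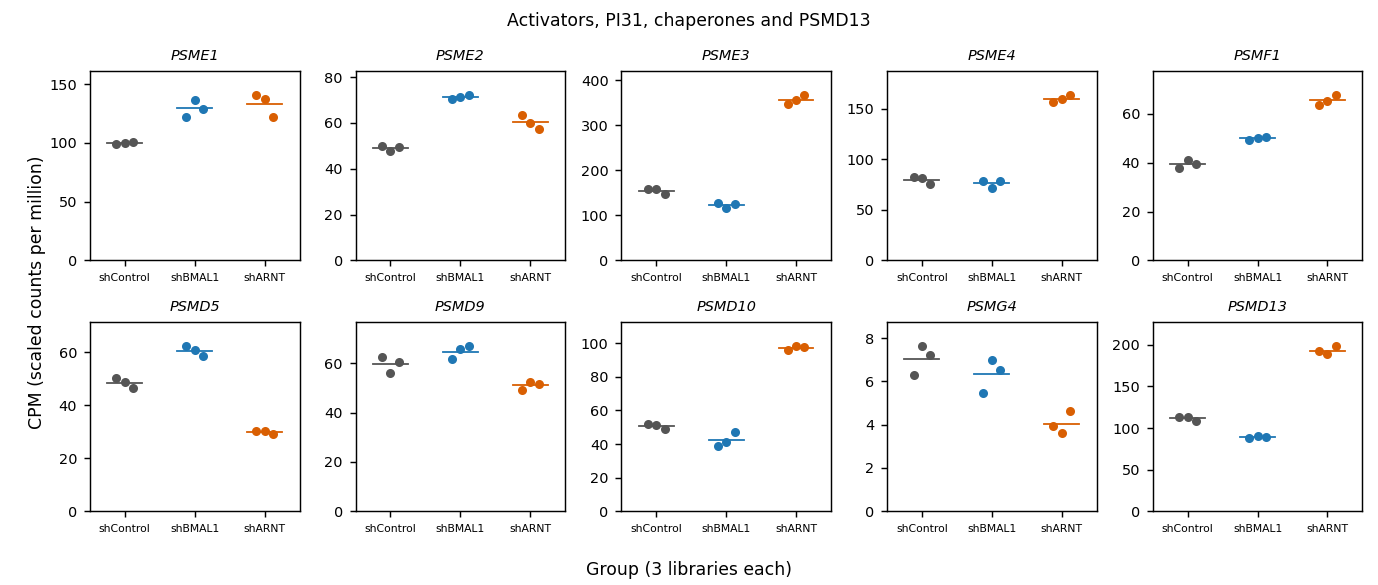
CPM (vertical axes, each from 0) of the 4 activators, PSMF1, the 3 base chaperones, PSMG4 and the lid subunit PSMD13, by group (horizontal axis), with points for libraries and bars for the means of 3. PSME3 spans 115 CPM in shBMAL1 to 366 CPM in shARNT, and PSMD5 spans 62.2 to 29.3 CPM between the same groups.

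The 3 chaperones of the 19S base did not move together. PSMD5 (chromosome 9, 123577774 to 123605229, minus strand) measured 50.2, 48.6 and 46.5 CPM in shControl, 62.2, 60.8 and 58.6 in shBMAL1, and 30.3, 30.1 and 29.3 in shARNT. It fell by 0.70 in shARNT (adjusted p = 1.96e-10) and rose by 0.32 ± 0.05 in shBMAL1 (adjusted p = 2.03e-05), without overlap. PSMD10, also called gankyrin (chromosome X, 107327437 to 107334779, minus strand), went the other way, with 52.1, 51.3 and 48.8 CPM in shControl, 38.6, 41.5 and 46.9 in shBMAL1, and 95.8, 98.1 and 97.8 in shARNT. It rose by 0.94 ± 0.06 in shARNT (adjusted p = 7.33e-12) and fell by 0.26 in shBMAL1 (adjusted p = 0.000940). PSMD9 measured 62.6, 56.0 and 60.5 CPM in shControl, 61.7, 65.7 and 66.9 in shBMAL1, and 49.1, 52.5 and 51.8 in shARNT. Its shARNT estimate was -0.22 (adjusted p = 0.000892) and became 0.01 with library size alone. The PSMD9 change of 0.12 in shBMAL1 lost its call without shControl 2, shBMAL1 2 or shBMAL1 3, at 0.07 to 0.10.

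The chaperones of the 20S core work as the pairs PSMG1 with PSMG2, and PSMG3 with PSMG4. PSMG1 measured 21.7, 21.5 and 19.2 CPM in shControl, 23.4, 24.2 and 22.6 in shBMAL1, and 28.9, 26.0 and 27.3 in shARNT. PSMG2 measured 19.2, 15.5 and 16.7, then 16.9, 20.7 and 21.0, then 23.2, 23.7 and 21.3 CPM in the same order of groups. The members of this pair rose alike in shARNT, by 0.40 ± 0.07 and 0.41 ± 0.09. In shBMAL1 PSMG1 changed by 0.17 and lost its call without shControl 3 or shBMAL1 2, at 0.11 to 0.15. PSMG2 changed by 0.19 there and lost its call without shControl 2, shControl 3, shBMAL1 2, shBMAL1 3 or shARNT 2, at 0.12 to 0.19.

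PSMG3 and PSMG4, in contrast, diverged. PSMG3 measured 14.6, 14.6 and 14.9 CPM in shControl, 18.9, 18.5 and 16.8 in shBMAL1, and 16.1, 16.6 and 16.4 in shARNT. It rose by 0.30 ± 0.07 in shBMAL1 (adjusted p = 0.00190), and its shARNT change of 0.16 (adjusted p = 0.0615) lost its call without shControl 1, shControl 2, shARNT 2 or shARNT 3, at 0.15 to 0.16. PSMG4 (chromosome 6, 3231637 to 3303607, plus strand) measured 6.28, 7.62 and 7.24 CPM in shControl, 5.47, 6.996 and 6.53 in shBMAL1, and 3.94, 3.62 and 4.61 in shARNT. It fell by 0.80 in shARNT (adjusted p = 2.06e-05), and its shBMAL1 values overlapped the controls (adjusted p = 0.332).

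Against the shared controls, some members were called in opposite directions. The share of all tested genes called so was not counted, so whether this sets the members apart is not known. For PSMA7, PSMB4, PSMD10, PSMD13 and PSME3 the shARNT libraries were higher and the shBMAL1 libraries lower. For PSMD5, PSMD8 and PSMD9 the order was the opposite, and with library size alone only PSMD5 of these 3 kept a negative estimate in shARNT. In the direct comparison, PSMA7 differed by 0.93, PSMB4 by 0.43, PSMD10 by 1.20 and PSMD13 by 1.12. PSMD5 differed there by -1.02, PSMD8 by -0.39 and PSMD9 by -0.34.

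Levels of different genes were compared per kilobase of the longest coding transcript, in CPM per kilobase. Although subunits enter the core in equal numbers, transcript levels of the 14 constitutive core subunits in shControl ranged from 14.5 ± 0.972 for PSMA4 to 388 ± 6.74 for PSMB4, a 26.8-fold span. In shARNT the span between the same genes was 14.9-fold, from 31.7 ± 1.48 to 471 ± 16.5. With union exon length the span was 37.2-fold in shControl, from PSMA6 to PSMB4, and 27.3-fold in shARNT, from PSMA6 to PSMB6. Before division by length PSMA4, at 63.4 CPM in shControl, was above PSMA3 (37.7) and PSMA6 (29.2), so the span depends on the length used. The catalytic subunits PSMB6, PSMB5 and PSMB7 stood at 136 ± 2.43, 130 ± 5.20 and 117 ± 0.653 in shControl, where the first 2 did not differ beyond their spread. In shARNT PSMB6 reached 364 ± 1.30, above PSMB7 at 166 ± 4.37 and PSMB5 at 116 ± 2.54. The immune subunits lay below them in every group, with PSMB8 at 51.3 ± 2.37, PSMB10 at 34.8 ± 0.938 and PSMB9 at 14.5 ± 0.735 in shControl.

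Genes that work with the proteasome but carry other names were taken from a list of 32, all of them tested. In shARNT 21 of the 32 were higher and 10 lower, with a median of 0.43, beside 40.5% and 41.3% of all genes. In shBMAL1 15 were higher and 10 lower, with a median of 0.06, beside 31.9% and 31.5% of all genes, so the lower share was near the background. ADRM1, the ubiquitin receptor of the base (chromosome 20, 60877149 to 60883918, plus strand), measured 97.5, 95.5 and 94.2 CPM in shControl, 122, 125 and 131 in shBMAL1, and 265, 265 and 262 in shARNT. It rose 2.76-fold in shARNT (log2 1.46 ± 0.04, adjusted p = 1.34e-17) and by 0.39 ± 0.04 in shBMAL1. Exons of LAMA5 and another gene overlap 24.1% of the longest coding transcript of ADRM1 on the other strand. POMP, which matures the core, rose by 0.60 ± 0.05 and 0.22 ± 0.05. SHFM1, the small lid subunit now called SEM1, fell by 0.35 in shARNT (adjusted p = 3.70e-06). The base chaperone PAAF1 rose by 0.31 in shBMAL1, and its estimate of -0.18 in shARNT (adjusted p = 0.0289) became 0.05 with library size alone.

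NFE2L1, known to raise subunit transcription, was lower where the subunits were higher. It lies in GRCh37 (chromosome 17, 46125691 to 46138907, plus strand) and measured 576, 578 and 575 CPM in shControl, 540, 497 and 514 in shBMAL1, and 134, 140 and 145 in shARNT. In shARNT it fell by 2.05 on the log2 scale (adjusted p = 8.15e-20), the largest change of the 32 partners, and by 0.16 in shBMAL1 (adjusted p = 0.00170). The other genes of this pathway were picked out after their values were seen. NGLY1, which removes sugars from NFE2L1 protein and is needed for its activation, fell in shARNT from 36.8 ± 2.15 to 9.82 ± 0.363 CPM (log2 -1.90, adjusted p = 1.29e-15). DDI2, the protease that cuts NFE2L1 protein, fell in shBMAL1 by 1.16 (adjusted p = 2.27e-07) and had an estimate of -0.10 in shARNT (adjusted p = 0.434), which was -0.23 and called without shControl 3. The related factor NFE2L2 rose in shARNT by 0.86 ± 0.04, from 168 ± 1.94 to 305 ± 2.29 CPM. These are transcript levels, and no protein or activity of these factors was measured here.

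IRF1 and NLRC5, which can induce the immune subunits, rose with them in both depletions. IRF1 measured 15.4, 14.6 and 14.98 CPM in shControl, 32.0, 33.6 and 32.8 in shBMAL1, and 49.1, 53.3 and 57.9 in shARNT. This was a rise of 3.57-fold in shARNT (log2 1.84 ± 0.07, adjusted p = 1.17e-15) and of 1.13 ± 0.07 in shBMAL1 (adjusted p = 2.34e-11). NLRC5, an activator of antigen presentation genes, rose by 1.45 and 0.56. TAP1, the peptide transporter next to PSMB9, rose from 74.5 ± 1.69 CPM to 83.1 ± 0.950 in shBMAL1 and 153 ± 4.70 in shARNT. The gene spans of PSMB9 and TAP1 share 8608 bases on opposite strands in the annotation, but no exon of another gene overlaps the longest coding transcript of PSMB9. Exons of PSMB8-AS1 overlap 24.1% of the longest coding transcript of TAP1 on the other strand. The other antigen processing genes of the list did not all rise. TAPBP, which helps load peptides and was picked out after its values were seen, fell by 1.51 in shARNT (adjusted p = 2.74e-16) and by 0.53 in shBMAL1. The peptide trimmer ERAP1 rose by 1.19 ± 0.06 in shBMAL1, the largest partner change there, and fell by 0.61 in shARNT.

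**Figure D5:**
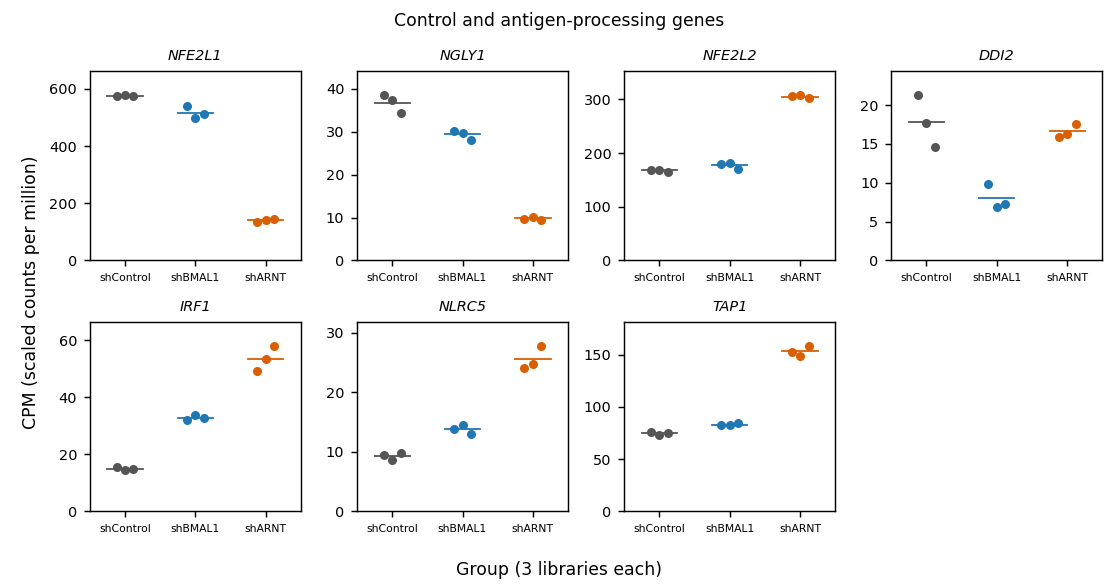
CPM (vertical axes, each from 0) of genes that control subunit transcription (NFE2L1, NGLY1, NFE2L2, DDI2) and of immune inducers with TAP1 (IRF1, NLRC5, TAP1), by group (horizontal axis), with points for libraries and bars for the means of 3. NFE2L1 drops from 576 CPM in shControl to 140 CPM in shARNT on average, and IRF1 goes from 14.96 to 32.8 and 53.4 CPM.

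Promoter sequence was at hand for 40 of the 46 tested genes (PSMB6 and PSMB7 were not among them). An E-box CACGTG lay in the 250 upstream bases of PSMB3, PSMD9 and PSME3, which is 7.50% of the 40, against 7.70% of 27305 genes. These 3 genes had shBMAL1 changes of 0.06, 0.12 and -0.33. The shorter ACGTG was present in 20% of the 40 and 21.7% of all genes, and CCAAT in 45.0% and 37.0%. The interferon-type motif TTCNNNGAA was present in 15% and 8.10%, and the antioxidant element TGACTCAGC in none of the 40 and 0.600% of all. The loose core TGANNNNGC was found in 57.5% of the 40 and 40.3% of all genes, and in 53.1% of the 32 that were higher in shARNT. Among the promoters printed above, PSMB9, PSMC4 and PSMD14, which rose, and PSMD5, which fell in shARNT, all hold it, and PSME3 does not. The 27305 genes were all those with promoter sequence and not only the tested ones, so these shares compare unlike sets. A match is a description of letters and not of a bound site.

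The 4 names outside the complex did not rise in either depletion against the controls. PSMD5-AS1, a noncoding neighbour of PSMD5, fell from 13.0 ± 0.398 CPM to 4.77 ± 0.067 in shARNT (log2 -1.45, adjusted p = 1.24e-11). PSMG3-AS1 fell by 0.70 in shBMAL1 (adjusted p = 1.40e-10), and its estimate of -0.26 in shARNT became -0.03 with no call under library size alone. PSMC3IP, a recombination factor, fell by 0.33 in shBMAL1 (adjusted p = 0.000901), and its shARNT estimate of -0.20 became 0.03 with library size alone. PSMD6-AS2 stayed below 0.7 CPM in every library and passed no test.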

How the data were processed

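The submitters sequenced stranded mRNA libraries (BGISEQ-500, paired-end 100-base reads). The deposited table holds estimated counts per gene name, made by the authors. The study's methods name GRCh37 and SeqMan NGen and ArrayStar (version 17), whereas the submitters' processing notes list hg38, STAR and DESeq2, and the table does not say which made it. The annotation release, strand use, treatment of reads with several matches and whether reads or pairs were counted are not given in the sources used here. A placeholder of 0.05 was set to 0, 45 names on several rows were summed, and values were rounded.

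The count model was edgeR 4.0.16 (R 4.3.3): TMM scaling, filterByExpr, all 9 libraries, group as the only term, quasi-likelihood test, Benjamini-Hochberg adjusted p below 0.1 over 15551 genes. SE is the size of the log2 fold change over the square root of F. DESeq2 1.42.0, other scalings, filters and thresholds, and leaving out each library were alternatives. The fit was also run on simulated data in which few genes changed, in shARNT alone, so that run cannot check the scaling between these groups. Positions and lengths come from GENCODE v44lift37 (GRCh37), and promoters from RefSeq. No 2 libraries of the same group agreed within sampling noise (mean chi-square per gene 3.93 to 7.21, over well-counted genes and taking counts as independent). Pairs from different groups were not compared in this way. Members and gene lists were chosen with earlier results of these data known. Named genes were the catalytic subunits, activators, PSMF1 and chaperones, fixed partners, and the called gene with the largest change in each role. Counts limit precision by counting error and by 3 libraries per group. Some genes of the partner list are not reported here.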

Additional observations from a re-analysis of the deposited data

Results flagged for a closer look

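The effects of the depletions differed for several members by the direct test of shARNT against shBMAL1 (edgeR's quasi-likelihood test). They were picked because their calls against the shared controls were opposite, so the direct test is not independent of that choice. How many of all tested genes had opposite calls was not counted. Higher in shARNT were PSME3 (log2 difference 1.53), PSMD10 (1.20), PSMD13 (1.12), PSMA7 (0.93) and PSMB4 (0.43). Lower in shARNT were PSMD5 (-1.02), PSMD8 (-0.39) and PSMD9 (-0.34). With library size alone the shARNT estimates against the controls were 0.00 for PSMD8 and 0.01 for PSMD9, and the shBMAL1 call of PSMD9 was lost without shControl 2, shBMAL1 2 or shBMAL1 3. Over the 50 tested members, 35 were higher and 10 lower in shARNT than in shBMAL1, with 40.1% and 41.1% of all genes for comparison.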

How the results depend on the processing

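Requiring a change of 1.5-fold left 25 members higher and 3 lower in shARNT (from 38 and 9 of the 50 tested), 2 and 1 under shBMAL1 (from 34 and 9), and 15 and 3 in the direct comparison (from 35 and 10). Of all genes, 24.5% and 28.9%, 11.2% and 12.4%, and 24.1% and 28.4% passed that change in the same order. Library size alone left 41 members higher and 3 lower under shARNT, where 50.3% and 32.9% of all genes were. In the direct comparison it left 40 higher and 5 lower, where 48% and 34% of all genes were. It moved the subunit medians from 0.67 to 0.91, from 0.21 to 0.26 and from 0.40 to 0.59, while those of all genes became 0.23, 0.05 and 0.18. Sign changes under that scaling were listed only for members and partners called with it or with TMM. In shARNT such estimates changed sign for PSMB5 (0.08), PSMC3 (0.22), PSMD3 (0.14), PSMD8 (0.00), PSMD9 (0.01), PSMC3IP (0.03), PAAF1 (0.05) and UBQLN2 (0.05). In the direct comparison they did so for PSMB5 (0.09), PSMB8 (0.15), PSMC3 (0.06), PSMC6 (0.06), PSMG3 (0.05), KIAA0368 (0.18) and RPS27A (0.02). The cause was not tested. Leaving out 1 library gave medians of 0.66 to 0.68 in shARNT and 0.20 to 0.24 in shBMAL1, and ended calls for 2 members (shARNT), 9 members (shBMAL1) and 4 members (direct comparison) and added calls for 1, 1 and 3, with no sign change among members called in either fit. The replicate numbers are labels only (same-numbered libraries deviated with r of -0.04 to 0.08, other pairs -0.08 to 0.09, and 4 of 9 libraries were closest to their own number). With the replicate block 38 members were higher and 9 lower in shARNT (40.4% and 41.1% of all genes). In shBMAL1 33 were higher and 9 lower with it (31.8% and 31.4% of all genes). Low counts limit PSMG4, PSMC1 and PSMD6-AS2 most.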
